A study of Mus musculus with 8 samples.

Results

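Cell cycle and DNA replication genes were described in whole mouse eyes at 2 ages, 5 days and 1 month after birth, in wild-type eyes and in eyes labelled KPAW, a name that the labels do not expand. The gene set held 44 genes: cyclins, their kinases and inhibitors, the replication machinery, the enzymes that make DNA precursors, and the proteins of mitosis. Each gene was read from the probe set that carried its symbol alone and had the highest mean signal over the 8 arrays. By that rule 42 of the 44 genes were found, out of 12393 genes named on the array, and Ccnb1 and Cdca8 were not analysed here. Total RNA of whole eyes had been hybridised to 8 Affymetrix mouse arrays, per the labels, with 2 arrays, numbered I and II, for each of the 4 groups: wild type at 5 days, KPAW at 5 days, wild type at 1 month and KPAW at 1 month. The 5-day wild type was C57Bl6, and neither the strain of the other groups nor the nature of KPAW (an allele, a line or a treatment) is stated in the labels. The labels do not say whether the arrays of a group came from separate animals, so every p-value measures only the spread between arrays, which may be technical. The values are scaled signals without a physical unit, comparable between arrays for 1 probe set but not between genes. A log2 fold change is on the scale log2(signal + 0.0211), which understates the change of genes with low signals, and "fell", "rose" or "passed" means a Benjamini-Hochberg adjusted p under 0.05 in limma over all 15838 probe sets tested.

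As background, a dividing cell commits to a new cycle when D-type cyclins with CDK4 relieve the retinoblastoma protein's hold on E2F transcription factors, which then turn on the genes of DNA synthesis. The MCM helicase opens replication origins, PCNA clamps the polymerases to DNA, and later CDK1 with A- and B-type cyclins drives mitosis until the anaphase promoting complex destroys the mitotic regulators. In the mouse eye the last retinal progenitors divide in the first days after birth, while the corneal, conjunctival and lens epithelia go on dividing into adult life.

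Many cell cycle promoters carry short shared sequences, and a few member promoters are shown here because most tested members were lower at 1 month. They belong to the 2 members of the mitotic roles and the 2 of the licensing and fork role with the largest wild-type changes among those with a table entry and a match. Mitotic promoters often pair a CHR element (TTTGAA) with CCAAT boxes (CCAAT), and promoters of DNA synthesis genes often hold E2F sites, searched here as TTTGGCGC, TTTCCCGC, TTTCGCGC or TTTGCCGC. Each sequence below covers 250 bases before to 50 bases after the annotated start (RefSeq, build GRCm38.p6), is written 5′ to 3′ on the gene's strand, and has every match to these letters, on either strand, in capitals. Mki67 (chr7:135716330-135716629, minus strand) and Cks2 (chr13:51644982-51645281, plus strand) are the mitotic examples. Mcm7 (chr5:138171834-138172133, minus strand) and Mcm6 (chr1:128359656-128359955, minus strand) are the replication examples. Cdk1 (chr10:69352863-69353162, minus strand) was added after its sequence was seen, because it holds all 3 kinds of match.
Mki67: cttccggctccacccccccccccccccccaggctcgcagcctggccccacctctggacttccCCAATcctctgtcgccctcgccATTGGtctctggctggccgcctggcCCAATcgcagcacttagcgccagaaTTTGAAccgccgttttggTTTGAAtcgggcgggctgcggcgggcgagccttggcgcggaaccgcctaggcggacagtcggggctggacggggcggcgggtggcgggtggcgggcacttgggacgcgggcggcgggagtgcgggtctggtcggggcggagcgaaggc
Cks2: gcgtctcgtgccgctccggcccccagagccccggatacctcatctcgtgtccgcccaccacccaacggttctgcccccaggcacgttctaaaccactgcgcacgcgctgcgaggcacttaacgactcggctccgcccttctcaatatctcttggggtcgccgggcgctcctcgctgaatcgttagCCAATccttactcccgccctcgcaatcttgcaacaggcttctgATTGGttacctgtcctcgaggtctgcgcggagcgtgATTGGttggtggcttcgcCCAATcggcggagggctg
Mcm7: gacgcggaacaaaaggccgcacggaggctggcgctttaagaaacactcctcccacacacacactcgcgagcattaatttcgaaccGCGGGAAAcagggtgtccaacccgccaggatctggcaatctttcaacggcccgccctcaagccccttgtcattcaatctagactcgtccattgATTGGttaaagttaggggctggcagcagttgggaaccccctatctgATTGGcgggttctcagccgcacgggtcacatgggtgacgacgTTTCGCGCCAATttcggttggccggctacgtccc
Mcm6: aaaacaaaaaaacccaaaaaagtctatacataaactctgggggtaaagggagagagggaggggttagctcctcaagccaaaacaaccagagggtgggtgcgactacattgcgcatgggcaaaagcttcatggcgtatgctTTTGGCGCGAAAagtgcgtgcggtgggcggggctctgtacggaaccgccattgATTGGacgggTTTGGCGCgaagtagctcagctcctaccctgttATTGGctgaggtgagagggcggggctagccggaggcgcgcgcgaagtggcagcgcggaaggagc
Cdk1: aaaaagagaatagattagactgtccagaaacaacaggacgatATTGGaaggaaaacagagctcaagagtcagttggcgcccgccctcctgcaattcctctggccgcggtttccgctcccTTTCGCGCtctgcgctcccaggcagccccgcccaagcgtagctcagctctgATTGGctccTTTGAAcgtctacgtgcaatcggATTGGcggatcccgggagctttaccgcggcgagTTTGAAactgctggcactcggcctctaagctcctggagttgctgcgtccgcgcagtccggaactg

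The Mki67 promoter held 2 CHR and 3 CCAAT matches, and the Cks2 promoter held 4 CCAAT matches without a CHR match. The Mcm7 promoter held 3 CCAAT and 2 E2F matches, and the Mcm6 promoter held 2 CCAAT and 3 E2F matches. The Cdk1 promoter held 2 CHR, 3 CCAAT and 1 E2F match. Of the 44 genes, 38 had an entry, with 42 promoters between them, and Mcm4, Kif20a, Ccnd1, Ccna2, Aurkb and Ccnd2 had none in the table used. The CHR letters stood in 76.2% of the 21 promoters of mitotic members and in 4.76% of the 21 promoters of the G1, inhibitor and replication members, against 17.9% of all 32851 promoters of the same length. The E2F letters stood in 4.76% and 28.6% of these promoters, against 2.26% of all promoters. In the licensing and fork role 5 members held them: Mcm3, Mcm5, Mcm6, Mcm7 and Cdc6. The CCAAT letters stood in 90.5% of the mitotic and 57.1% of the other member promoters, against 37.4% of all. These matches are a description of the letters and no measure of binding. The median log2 fold change with age in wild type was -0.92 over the 15 tested members with the CHR letters and -1.02 over the 18 without. It was -1.02 over the 6 with the E2F letters and -0.92 over the 27 without, and -0.92 over the 26 with the CCAAT letters and -1.35 over the 7 without.

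The arrays differed in ways that bear on the results. After scaling, replicate arrays correlated at 0.927 to 0.969, lowest for KPAW at 1 month, where 575 probe sets lay more than 2-fold apart against 167 for wild type at 1 month. Rod photoreceptor markers (7 of 8 listed genes had a probe set) summed to 26.6 and 32.6 in the wild-type arrays of 1 month and 29.4 in KPAW II, but to 0.798 in KPAW I, so rod transcripts were nearly missing from an array labelled as whole eye. Cornifying epithelium markers (6 of 6) reached 0.334 and 0.346 in the wild-type arrays of 1 month, against 19.8 in KPAW I and 7.84 in KPAW II. At 5 days the rod sums were close (6.91 to 7.48), but some others were not. Cornifying markers summed to 4.48 and 0.392 in wild type I and II, and 3.195 and 0.3001 in KPAW I and II. Hair follicle matrix markers (6 of 6) summed to 2.58 and 0.217 in wild type and 0.558 and 0.183 in KPAW. Basal surface epithelium markers summed to 3.30 and 2.56 in wild type and 8.76 and 1.499 in KPAW. The part of these differences was not tested. None of these lists had a gene at the lowest listed value in every array. The array signals of Xist, transcribed from the inactive X chromosome, were 2.95 and 3.64 in wild type at 5 days, 0.0821 and 3.13 in KPAW at 5 days, and 0.0523 to 0.0861 in the 4 arrays of 1 month. In wild type, age and this sex-linked marker cannot be told apart. In KPAW they overlap in part, because the 5-day array I had the low Xist signal too, and the part of the marker was not tested.

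Between 5 days and 1 month, most of the tested cell cycle genes fell in wild-type eyes. Of the 38 members tested, 25 fell and 0 rose, where 9.33% of all probe sets tested fell and 8.73% rose. In KPAW eyes 20 fell and 0 rose, where 7.51% of all probe sets fell and 6.76% rose. The proliferation marker Mki67, the CDK subunit Cks2, the mitotic kinase Cdk1, the G1 kinase Cdk4 and the helicase subunit Mcm7 were among those that fell in both. Cyclins D2 and D3 and the inhibitors Cdkn1a and Cdkn1b did not pass in either kind of eye. The median log2 fold change over all 42 members, fitted with no filter, stood at -0.93 for wild type and -0.83 for KPAW, and the medians over all 22626 probe sets of that fit were -0.04 and -0.01. That fit called 25 of the 42 lower in wild type (5.98% of all probe sets) and 19 in KPAW (4.63%). Bub1, at the lowest listed value in every array of 1 month, was gained in both. Cdk2 was lost in wild type, and Aurkb and Prc1 were lost in KPAW. By sign alone, 41 of the 42 were below 0 in wild type and 39 in KPAW. By threshold, 19 members fell in both kinds of eye, 6 in wild type alone and Mcm2 in KPAW alone, and 12 passed in neither. The interaction test of the difference between the kinds of eye, given after the roles, called 0 members.

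**Figure D1:**
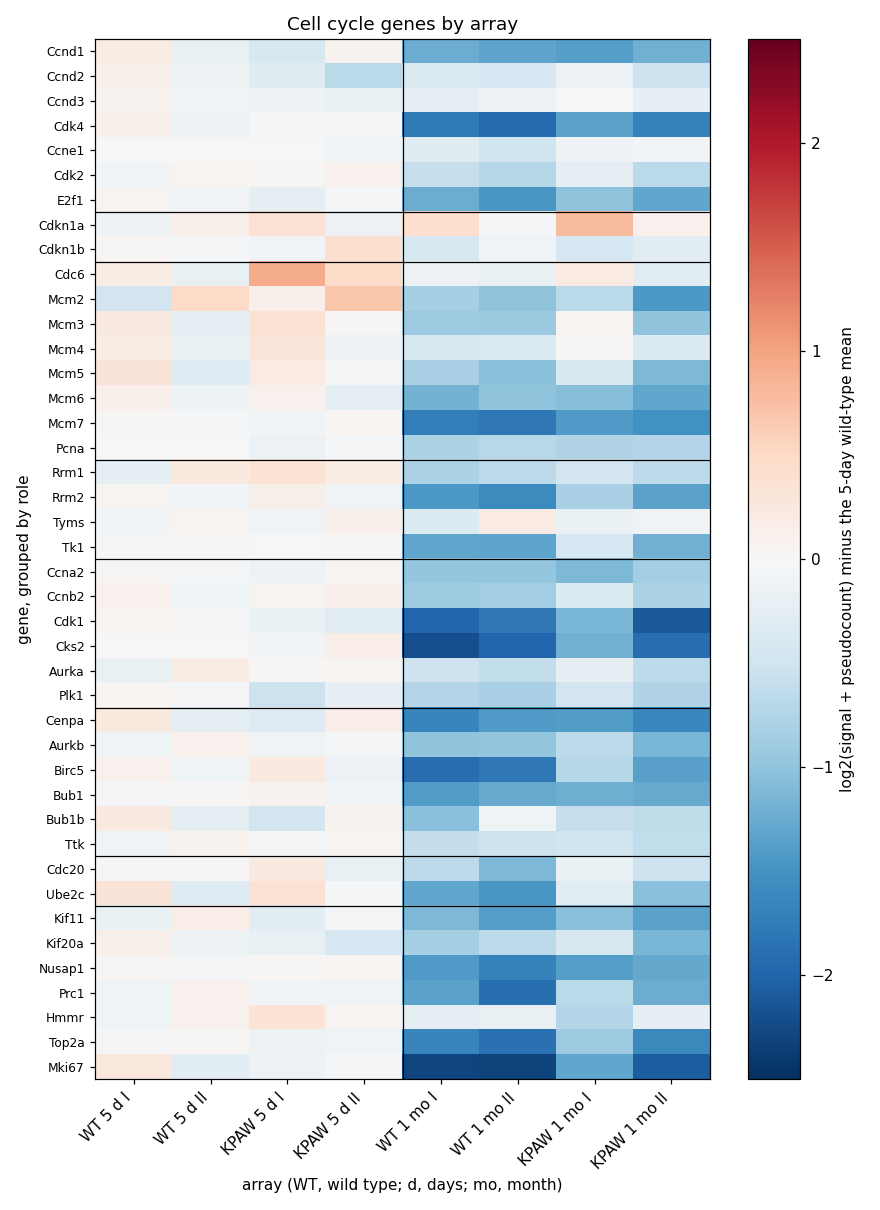
Log2 of the scaled signal plus 0.0211 in each of the 8 arrays (columns) less the gene's mean in 5-day wild type, for the 42 members (grouped by role), with blue for lower and red for higher values. The 4 arrays of 5 days are pale for most genes and the 4 arrays of 1 month blue, and KPAW I is paler than the other 1-month arrays for many genes.

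For most members the ages did not overlap. In 29 of 42 members all 4 arrays of 1 month lay below all 4 arrays of 5 days, an order found in 18.5% of the probe sets tested. Both wild-type arrays of 1 month lay below both of 5 days in 38 of 42 members (33.0% of probe sets), and both KPAW arrays did in 32 of 42 (32.2%). A whole eye can lose such a transcript through fewer dividing cells or through less RNA per cell, and the arrays cannot tell these apart. Retinal progenitor markers fell beside the members: 8 of 10 listed genes had a probe set, 5 of them fell in each kind of eye, and their summed signal was 1.74 to 2.02 at 5 days and 0.859 to 1.33 at 1 month. Other tissues shifted in the same arrays: in wild type the corneal epithelium markers went from 0.749 and 0.668 to 12.9 and 14.6 (3 of 3 rose), those of basal surface epithelium from 3.30 and 2.56 to 9.55 and 10.01 (3 of 5 rose), and those of rods from 7.14 and 7.45 to 26.6 and 32.6 (1 of 7 rose). The part of these shifts in the result was not tested. The wild-type count rested on both arrays of each age: it was 15 without array I of 5 days, 16 without array II of 5 days, 17 without array I of 1 month and 16 without array II of 1 month. The share of all probe sets that fell dropped in these refits too, from 9.33% to 2.64%, 3.24%, 4.0% and 4.15% in that order. Without array II of 5 days, the low-Xist array was the only 5-day KPAW array left. The KPAW median over the tested members was then -0.87, against -0.84 with both 5-day arrays and -0.80 without array I. Most KPAW calls were lost without array II, as listed later, so the median alone does not describe that refit. The part of the sex-linked marker was not tested.

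Among the G1 and S phase cyclins, kinases and E2F, 4 of 7 members fell in wild type (Cdk4, Ccnd1, E2f1 and Cdk2) and 3 of 7 in KPAW (the same list without Cdk2). Cdk4, the kinase partner of the D-type cyclins, read 0.893 and 0.752 in wild type and 0.792 and 0.805 in KPAW at 5 days. At 1 month it read 0.227 and 0.199 in wild type and 0.311 and 0.238 in KPAW, so the highest older eye stood far below the lowest younger eye. Its log2 fold change was -1.85 (SE 0.17, adjusted p = 0.000673) in wild type and -1.48 (SE 0.17, adjusted p = 0.00197) in KPAW. The other 2 Cdk4 probe sets gave -1.72 and -1.66 in wild type and also passed. The chosen Cdk4 probe set, like those of Rrm2 and Aurkb, has a name ending that marks possible cross-reaction with other transcripts.

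E2f1, a transcription factor that turns on DNA synthesis genes, fell in both kinds of eye. It read 0.135 and 0.121 in wild type and 0.104 and 0.123 in KPAW at 5 days, and 0.0416 and 0.0334 in wild type and 0.0529 and 0.0392 in KPAW at 1 month. The groups of the 2 ages did not overlap, and the log2 fold change was -1.35 (SE 0.19, adjusted p = 0.00337) in wild type and -1.01 (SE 0.19, adjusted p = 0.0124) in KPAW.

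The 3 D-type cyclins, which link growth signals to the start of the cycle, differed among themselves. Ccnd1, the cyclin D of retinal progenitors, read 1.99 and 1.54 in wild type and 1.31 and 1.87 in KPAW at 5 days, and 0.731 and 0.687 in wild type and 0.664 and 0.748 in KPAW at 1 month. It fell in both kinds of eye, by log2 fold changes of -1.28 (SE 0.20, adjusted p = 0.00530) and -1.13 (SE 0.20, adjusted p = 0.0101), and its other 2 probe sets fell too. Ccnd2 read 0.668 and 0.559 in wild type and 0.490 and 0.377 in KPAW at 5 days, and 0.471 and 0.450 in wild type and 0.550 and 0.419 in KPAW at 1 month. Its wild-type arrays were ordered by age while its KPAW arrays overlapped, and the log2 fold changes were -0.39 (SE 0.19, adjusted p = 0.183) and 0.15 (SE 0.19, adjusted p = 0.629), the first of which turned to 0.10 unscaled, as deposited. Its tested probe sets were all below 0 in wild type but differed on the threshold, since another of them fell there by 0.75 on the log2 scale (adjusted p = 0.0261). Ccnd3 read 0.441 and 0.385 in 5-day wild type, 0.374 and 0.359 in 5-day KPAW, 0.344 and 0.373 in 1-month wild type and 0.407 and 0.356 in 1-month KPAW, all within a narrow band, with log2 fold changes of -0.19 (SE 0.14, adjusted p = 0.370) in wild type (0.29 unscaled, as deposited) and 0.05 (SE 0.14, adjusted p = 0.835) in KPAW.

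**Figure D2:**
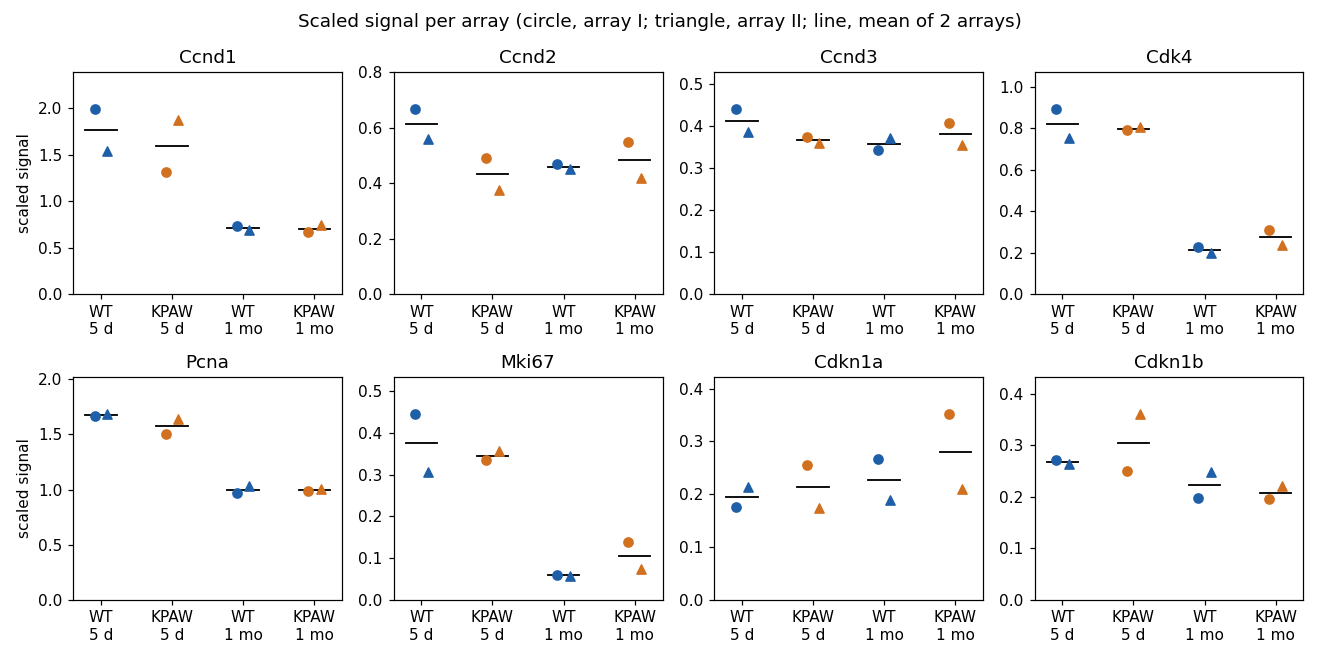
Scaled signal (linear y axis from 0, a separate axis for each gene) of the D-type cyclins, Cdk4, Pcna, Mki67 and the CDK inhibitors in the 4 groups, with a circle for array I, a triangle for array II and a line at their mean. Ccnd1, Cdk4, Pcna and Mki67 are lower in all 4 arrays of 1 month than in any of 5 days, while Ccnd2, Ccnd3 and Cdkn1a overlap between the ages in at least 1 kind of eye.

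Neither CDK inhibitor passed in either kind of eye. Cdkn1a, the p21 inhibitor induced by p53, read 0.175 and 0.214 in wild type and 0.254 and 0.173 in KPAW at 5 days, and 0.266 and 0.188 in wild type and 0.351 and 0.209 in KPAW at 1 month. It was the only tested member with a log2 fold change above 0 in wild type, at 0.19 (SE 0.28, adjusted p = 0.671), and its replicates overlapped between ages. Cdkn1b, the p27 inhibitor of cells leaving the cycle, read 0.272 and 0.263 in 5-day wild type, 0.250 and 0.360 in 5-day KPAW, 0.198 and 0.248 in 1-month wild type and 0.195 and 0.220 in 1-month KPAW. Its older arrays all lay just below its younger ones, and the log2 fold changes of -0.25 (SE 0.19, adjusted p = 0.406) and -0.50 (SE 0.19, adjusted p = 0.128) did not pass, the first turning to 0.22 unscaled, as deposited.

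Of the 8 genes of origin licensing and the replication fork, 7 were tested. Mcm6, Mcm7 and Pcna fell in both kinds of eye and Mcm2 in KPAW alone, while Mcm3, Mcm4 and Mcm5 did not pass. Mcm7, a subunit of the hexameric helicase, read 0.897 and 0.855 in wild type and 0.831 and 0.905 in KPAW at 5 days. It read 0.250 and 0.240 in wild type and 0.317 and 0.294 in KPAW at 1 month, with replicates close together in every group, and its log2 fold change was -1.75 (SE 0.13, adjusted p = 0.000293) in wild type and -1.44 (SE 0.13, adjusted p = 0.000764) in KPAW. Pcna, the sliding clamp of the replication fork and of DNA repair, read 1.67 and 1.68 in 5-day wild type, 1.50 and 1.64 in 5-day KPAW, 0.965 and 1.03 in 1-month wild type and 0.988 and 1.00 in 1-month KPAW. It fell less far: the older wild-type eyes kept 59.5% and the older KPAW eyes 63.3% of the 5-day signal, with log2 fold changes of -0.74 (SE 0.12, adjusted p = 0.00645) and -0.65 (SE 0.12, adjusted p = 0.0123).

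The other helicase subunits spread widely. Mcm6 fell by log2 fold changes of -1.10 (SE 0.18, adjusted p = 0.00724) and -1.12 (SE 0.18, adjusted p = 0.00800). Mcm2 read 0.151 and 0.315 in wild type and 0.242 and 0.367 in KPAW at 5 days, with a wide gap between replicates, and its log2 fold change was -0.92 (SE 0.37, adjusted p = 0.122) in wild type and -1.46 (SE 0.37, adjusted p = 0.0354) in KPAW. Its other probe set passed in both kinds of eye. Mcm5 and Mcm3 had log2 fold changes of -0.93 and -0.92 in wild type with SE 0.30 and 0.34, and Mcm4 of -0.38. Cdc6, which loads the helicase, had a mean signal of 0.0219 and was left out by the filter.

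Nucleotide supply followed the same direction. Of its 4 genes, Rrm1, Rrm2 and Tk1 fell in wild type and Rrm1 and Rrm2 in KPAW, and Tyms, at a mean signal of 0.0137, was left out by the filter. Rrm2, the cell cycle regulated subunit of ribonucleotide reductase, read 0.244 and 0.219 in wild type and 0.259 and 0.217 in KPAW at 5 days, and 0.0719 and 0.0631 in wild type and 0.122 and 0.0785 in KPAW at 1 month. Its log2 fold change was -1.51 (SE 0.20, adjusted p = 0.00297) in wild type and -1.11 (SE 0.20, adjusted p = 0.0118) in KPAW, and its other 2 probe sets fell as well. Tk1, the thymidine kinase of S phase, read 0.144 and 0.152 in wild type and 0.149 and 0.152 in KPAW at 5 days, and 0.0481 and 0.0463 in wild type and 0.103 and 0.0529 in KPAW at 1 month. KPAW I stood highest among the older eyes, and the log2 fold change was -1.31 (SE 0.24, adjusted p = 0.00940) in wild type and -0.84 (SE 0.24, adjusted p = 0.0519) in KPAW. Rrm1, the large subunit, read 0.269 and 0.389 in 5-day wild type, 0.418 and 0.371 in 5-day KPAW, 0.177 and 0.199 in 1-month wild type and 0.226 and 0.198 in 1-month KPAW, with log2 fold changes of -0.72 (SE 0.19, adjusted p = 0.0348) and -0.83 (SE 0.19, adjusted p = 0.0256).

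**Figure D3:**
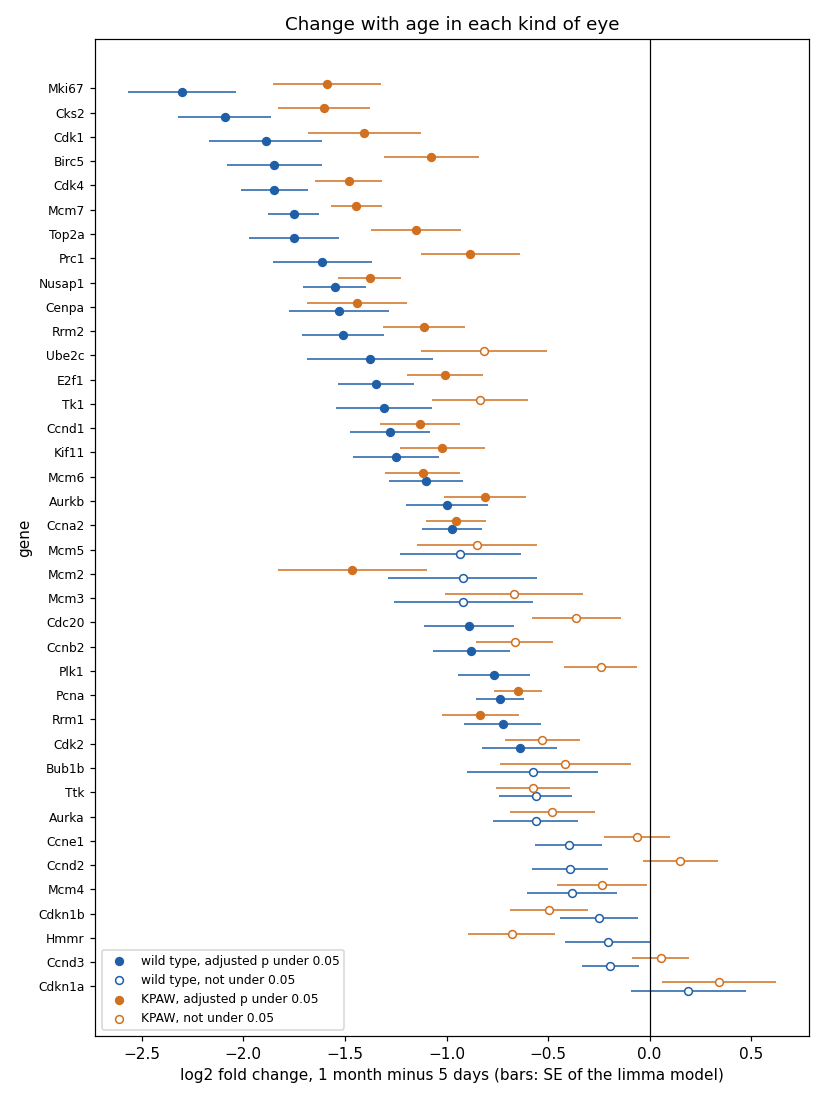
Log2 fold change from 5 days to 1 month (x axis) with the SE of the limma model (bars) for the 38 tested members (y axis), in wild type (blue) and KPAW (orange), with filled points where the adjusted p was under 0.05. Mki67 and Cks2 lie farthest from 0 in wild type, at -2.30 and -2.09, and Ccnd3 and Cdkn1a lie nearest to 0.

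The mitotic cyclins and kinases held the gene with the second largest fall. Of 6 genes found, Cks2, Cdk1, Ccna2, Ccnb2 and Plk1 fell in wild type, Cks2, Cdk1 and Ccna2 fell in KPAW, and Aurka passed in neither. Cks2, a small subunit of CDK complexes, read 0.533 and 0.543 in wild type and 0.511 and 0.604 in KPAW at 5 days, and 0.101 and 0.120 in wild type and 0.221 and 0.128 in KPAW at 1 month. The older eyes kept 20.5% of the 5-day signal in wild type and 31.2% in KPAW, with log2 fold changes of -2.09 (SE 0.23, adjusted p = 0.00132) and -1.60 (SE 0.23, adjusted p = 0.00465). Cdk1, the kinase that starts mitosis, read 0.397 and 0.366 in wild type and 0.337 and 0.313 in KPAW at 5 days, and 0.0803 and 0.0951 in wild type and 0.161 and 0.0727 in KPAW at 1 month. No older array reached the lowest younger one, and the log2 fold change was -1.89 (SE 0.28, adjusted p = 0.00436) in wild type and -1.40 (SE 0.28, adjusted p = 0.0161) in KPAW.

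Plk1, a kinase of mitotic entry and the spindle, read 0.159 and 0.148 in wild type and 0.0995 and 0.131 in KPAW at 5 days, and 0.0845 and 0.0787 in wild type and 0.105 and 0.0828 in KPAW at 1 month. The KPAW arrays overlapped between ages, and the log2 fold change was -0.77 (SE 0.18, adjusted p = 0.0235) in wild type and -0.24 (SE 0.18, adjusted p = 0.401) in KPAW. The interaction for Plk1 was 0.52 (SE 0.25) with an adjusted p of 0.809, so the difference between the kinds of eye did not pass.

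At the centromere, in the chromosomal passenger complex and in the spindle checkpoint, Birc5, Cenpa and Aurkb fell in both kinds of eye, and Bub1b and Ttk passed in neither. Birc5, the survivin subunit of the passenger complex, read 0.266 and 0.223 in wild type and 0.289 and 0.219 in KPAW at 5 days, and 0.0496 and 0.0554 in wild type and 0.140 and 0.0828 in KPAW at 1 month. The older KPAW arrays were both higher than either older wild-type array, and the log2 fold change with age was -1.85 (SE 0.23, adjusted p = 0.00239) in wild type and -1.08 (SE 0.23, adjusted p = 0.0226) in KPAW. Cenpa, the histone H3 variant that marks centromeres, read 0.168 and 0.113 in wild type and 0.107 and 0.159 in KPAW at 5 days, and 0.0300 and 0.0389 in wild type and 0.0396 and 0.0303 in KPAW at 1 month. Its older arrays were close together in both kinds of eye, with log2 fold changes of -1.53 (SE 0.25, adjusted p = 0.00634) and -1.44 (SE 0.25, adjusted p = 0.00937). These older arrays all lay below the filter's threshold of 0.0406, so Cenpa was tested through its 5-day signal. The older arrays of Kif11 and E2f1 lay on both sides of that threshold. For Kif11 they read 0.0407 and 0.0311 in wild type and 0.0445 and 0.0323 in KPAW, so the same limit bears on its fall.

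Bub1, a checkpoint kinase just outside the filter (mean signal 0.0310, threshold 0.0406, with Ttk just inside at 0.0544), is given here because of its values. It read 0.0508 and 0.0544 in wild type and 0.0570 and 0.0490 in KPAW at 5 days while all 4 arrays of 1 month held the table's minimum, so its fall has no measured size. The fit without a filter called it lower in both kinds of eye. Its 1-month values differ only by the scaling of the arrays, so that fit understates their spread and its adjusted p is not given. Cdc6, Tyms and Kif20a did not pass in that fit.

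Both partners of the anaphase promoting complex fell in wild type and neither passed in KPAW. Ube2c, the ubiquitin-conjugating enzyme that works with it, read 0.197 and 0.118 in wild type and 0.202 and 0.149 in KPAW at 5 days, and 0.0498 and 0.0425 in wild type and 0.124 and 0.0630 in KPAW at 1 month. The older KPAW I array overlapped the younger eyes, and the log2 fold change was -1.38 (SE 0.31, adjusted p = 0.0209) in wild type and -0.82 (SE 0.31, adjusted p = 0.118) in KPAW. Cdc20, its activator in mitosis, read 0.227 and 0.241 in 5-day wild type, 0.276 and 0.203 in 5-day KPAW, 0.140 and 0.0960 in 1-month wild type and 0.207 and 0.156 in 1-month KPAW, with log2 fold changes of -0.89 (SE 0.22, adjusted p = 0.0293) and -0.36 (SE 0.22, adjusted p = 0.311). The interaction did not pass for either gene (adjusted p = 0.818 and 0.809).

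Among the genes of the spindle, its midzone and chromosome structure, Mki67, Top2a, Prc1, Nusap1 and Kif11 fell in both kinds of eye, Hmmr passed in neither, and Kif20a was left out by the filter. Mki67, which coats mitotic chromosomes and encodes the Ki-67 proliferation antigen, read 0.445 and 0.305 in wild type and 0.336 and 0.356 in KPAW at 5 days, and 0.0587 and 0.0573 in wild type and 0.138 and 0.0723 in KPAW at 1 month. Only 15.4% of the 5-day signal remained in wild type and 30.4% in KPAW, with log2 fold changes of -2.30 (SE 0.27, adjusted p = 0.00162) and -1.59 (SE 0.27, adjusted p = 0.00852). Nusap1, a spindle microtubule binding protein, read 0.215 and 0.206 in wild type and 0.214 and 0.223 in KPAW at 5 days, and 0.0658 and 0.0507 in wild type and 0.0681 and 0.0739 in KPAW at 1 month. Its replicates were tight in every group, with log2 fold changes of -1.55 (SE 0.15, adjusted p = 0.00100) and -1.38 (SE 0.15, adjusted p = 0.00197). Prc1, which bundles midzone microtubules, read 0.252 and 0.298 in 5-day wild type, 0.262 and 0.257 in 5-day KPAW, 0.0963 and 0.0585 in 1-month wild type and 0.164 and 0.104 in 1-month KPAW. It had log2 fold changes of -1.61 (SE 0.24, adjusted p = 0.00492) and -0.88 (SE 0.24, adjusted p = 0.0483).

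The calls held to different degrees. Of the 25 falls in wild type, 11 were called under each of the 20 alternative settings that tested them. These were Cdk4, E2f1, Mcm7, Rrm2, Cdk1, Cks2, Birc5, Nusap1, Prc1, Top2a and Mki67. In KPAW 4 of the 20 falls were so called: Cdk4, Mcm7, Cks2 and Nusap1. The filter above the 50th percentile left E2f1 out, so E2f1 was not tested under that setting. Tk1, Plk1, Ccnb2, Aurkb and Cdk2 lost the wild-type call when any 1 of the 4 wild-type arrays was left out. Pcna lost it when either 5-day array was left out, Rrm1 without array II of 5 days or array I or II of 1 month, Mcm6 without array I of either age, and Cenpa without array I of 5 days. Cdc20 lost it without array I or II of 5 days or array II of 1 month, Ube2c without array I of 5 days or array I or II of 1 month, and Kif11 without array II of either age. In KPAW 14 calls were lost without array II of 5 days (Ccnd1, E2f1, Mcm2, Pcna, Rrm1, Ccna2, Cdk1, Cenpa, Aurkb, Birc5, Kif11, Prc1, Top2a and Mki67). Without array I of 5 days Rrm1, Rrm2, Cdk1, Aurkb, Birc5 and Prc1 were lost, and without array II of 1 month Mcm2, Rrm1, Aurkb, Birc5, Kif11 and Prc1. Arrays of the other kind of eye enter through the shared spread, and Aurkb and Prc1 also lost the KPAW call when either 5-day wild-type array was left out. The KPAW count dropped as well when either 1-month wild-type array was left out. On the values as deposited, unscaled, the median change of all probe sets in wild type was 0.44, and Ccnd1, Cdk2, Mcm6, Pcna, Rrm1, Ccna2, Ccnb2, Plk1, Aurkb and Cdc20 lost the wild-type call. Pcna, Rrm1, Ccna2, Aurkb and Prc1 lost the KPAW call there. Where tested, the other probe sets of the members ran the same way in wild type. Of 42 such probe sets 26 were tested, all 26 had a log2 fold change below 0 with age in wild type, and 18 of them fell. The filter left out the rest, which did not all run one way. A second Nusap1 probe set among them read 0.0165 and 0.0183 at 5 days and 0.0211 and 0.0300 at 1 month in wild type.

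At 5 days no cell cycle gene was called different between KPAW and wild-type eyes. No member passed in limma, where 0.0% of all probe sets did, and 1 of 38 members had an unadjusted p under 0.05, against 2.39% of all probe sets. The log2 difference, KPAW minus wild type, ran from -0.49 to 0.41 over the 38 tested members, with 19 above 0 and a median of -8.4e-05 against 0.01 over all probe sets. Both KPAW arrays lay below both wild-type arrays in 7 of 42 members (16.6% of probe sets) and above them in 1 (16.8%). The 3 members with the largest statistics were Ccnd2 at -0.49 (SE 0.19), Plk1 at -0.37 (SE 0.18) and Rrm1 at 0.27 (SE 0.19), each with an adjusted p of 1.00. Refits without a variance trend and with array weights also called 0 members.

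At 1 month, after scaling, most members were higher in KPAW eyes by sign, but none passed. In limma 0 of 38 members passed, where 0.0253% of all probe sets did (0.0126% higher and 0.0126% lower), the lowest adjusted p was 0.627 and 7 of 38 members had an unadjusted p under 0.05, against 6.95% of all probe sets. Refits without a variance trend and with array weights called 0 members as well. The median log2 difference was 0.19, against -0.01 over all probe sets, and 29 of 38 were above 0, against 48.0% of all probe sets. With the values as deposited, unscaled, the median turned to -0.03, against -0.26 over all probe sets, and 16 of 38 members were above 0. In 15 of 42 members each KPAW array exceeded each wild-type array (16.9% of probe sets), and in 0 members each was lower (19.6%).

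The difference at 1 month was uneven between the 2 KPAW arrays. KPAW I was the highest of the 4 arrays in 31 of 42 members (33.6% of probe sets). Its median log2 difference from the wild-type mean over the members was 0.34, and that of KPAW II was 0.01, where the medians over all probe sets were 0.00 and -0.01. Mki67 in KPAW I was 2.38 times the wild-type mean and in KPAW II 1.25 times. Birc5 was 2.66 and 1.58 times, Cks2 1.998 and 1.16 times, Prc1 2.12 and 1.35 times, and Cdc20 1.75 and 1.32 times. These are the 5 members with the largest statistics, and their log2 differences between the groups were 0.62, 0.81, 0.53, 0.65 and 0.55 with SE 0.27, 0.23, 0.23, 0.24 and 0.22. Pcna and Ccna2 stood closer to wild type: Pcna in KPAW I was 0.991 times the wild-type mean and Ccna2 0.883 times.

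**Figure D4:**
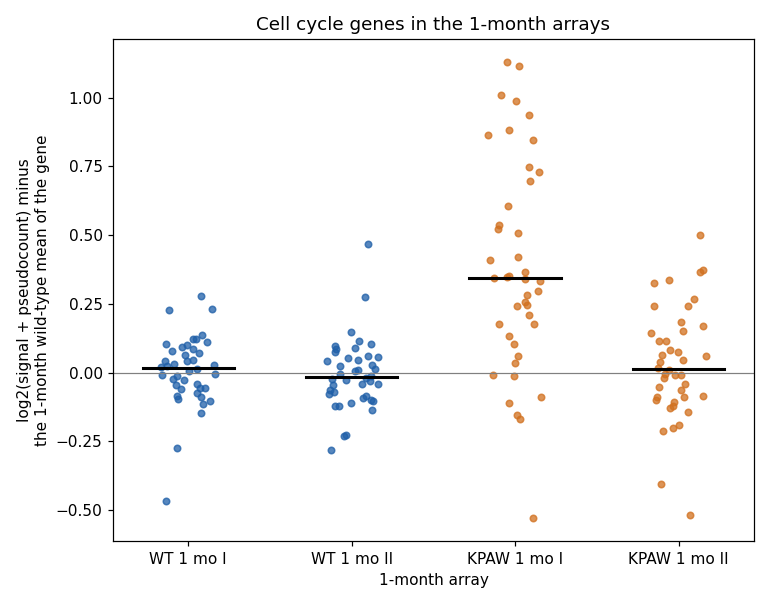
Log2 of the scaled signal plus 0.0211 in each of the 4 arrays of 1 month (x axis) less the gene's mean in 1-month wild type (y axis), with a point for each of the 42 members and a line at their median. KPAW I spreads highest, with a median of 0.34, while KPAW II lies around 0 with a median of 0.01.

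Leaving out either KPAW array changed the picture. Without KPAW II, 4 members were called higher in KPAW (0.909% of probe sets): Birc5 with a log2 difference of 1.13 (SE 0.21, adjusted p = 0.0379), Cks2 of 0.88 (adjusted p = 0.0422), Tk1 of 0.87 (adjusted p = 0.0451) and Top2a of 0.85 (adjusted p = 0.0384). The single KPAW array is then assumed to vary like the other groups. Without KPAW I the median difference was 0.03 and 0 members were called. KPAW I is the array with the rod marker sum of 0.798 and the cornifying marker sum of 19.8 given earlier. Basal surface epithelium markers (5 of 5) summed to 14.8 there, 12.6 in KPAW II and 9.55 and 10.01 in wild type. Corneal epithelium markers (3 of 3) ran the other way: the wild-type arrays summed to 12.9 and 14.6, KPAW I to 2.27 and KPAW II to 9.17. Macrophage and microglia markers (6 of 6) summed to 1.34 in KPAW I, 1.04 in KPAW II and 0.817 and 0.721 in wild type. Their part in the result was not tested.

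After scaling, the change with age was smaller in KPAW than in wild type by sign in most members, and the test of that difference did not pass for any. The interaction, the KPAW minus wild-type difference at 1 month less that at 5 days, had a median of 0.22 over the 38 tested members, and 32 were above 0, against a median of -0.03 and 46.3% above 0 over all probe sets. Unscaled, as deposited, its median turned to -0.18, against -0.45 over all probe sets, and 11 of 38 members were above 0. Adjusted p-values ran from 0.809 to 0.990 in limma, 1 of 38 members had an unadjusted p under 0.05, against 5.88% of all probe sets, and 0.0% of all probe sets passed. Refits without a variance trend and with array weights also called 0 members. Without KPAW I the median change with age in KPAW was -1.11 and 26 members fell, against -0.63 and 15 without KPAW II.

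A wider list of 103 genes of the same pathways, with 95 on the array and 82 tested, held mostly genes that were lower at 1 month, with a smaller median change. In wild type 30 of 82 fell and 2 rose, where 9.33% of all probe sets fell and 8.73% rose. In KPAW 25 fell and 3 rose, where 7.51% of all probe sets fell and 6.76% rose. The median log2 fold change over all 95, with no filter, was -0.50 in wild type and -0.39 in KPAW. Among mitotic kinase, spindle and condensin genes 8 of 17 tested fell in wild type, led by Smc2 (-1.66), a condensin subunit, and Tpx2 (-1.61), an activator of Aurora A. Among kinetochore and checkpoint genes 5 of 7 fell, led by Pttg1 (-1.67), which encodes securin, and Cenpf (-1.52).

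Licensing and firing genes fell in 4 of 12 cases in wild type, led by Dbf4 (-1.57), the activator of the Cdc7 kinase, and Gins1 (-1.21), a helicase cofactor. Of the other fork genes 2 of 17 fell, a share near the 9.33% of all probe sets: Rfc3 (-1.24), a clamp loader subunit, and Rpa3 (-0.79). In nucleotide supply 2 of 5 fell, Dtymk (-0.74) and Dut (-0.60). Of the genes of replication-linked chromatin 4 of 7 fell, led by Hmgb2 (-1.79) and Ezh2 (-1.64), the methyltransferase of Polycomb complex PRC2. Of the E2F, pocket protein and regulator genes 5 of 17 fell, led by the CDK inhibitor Cdkn1c (-2.16) and Mycn (-1.29), a transcription factor of growing progenitors.

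The genes that rose were few. Rpa1, the large subunit of the single-strand DNA binding protein, read 0.649 and 0.656 in wild type and 0.598 and 0.524 in KPAW at 5 days, and 1.05 and 1.15 in wild type and 1.21 and 1.08 in KPAW at 1 month. Every older array lay above every younger one, opposite to its partner Rpa3, with log2 fold changes of 0.73 (SE 0.14, adjusted p = 0.0102) and 1.00 (SE 0.14, adjusted p = 0.00371). Ccng1, a cyclin induced by p53, read 0.311 and 0.423 in 5-day wild type, 0.330 and 0.447 in 5-day KPAW, 0.636 and 0.803 in 1-month wild type and 0.905 and 0.849 in 1-month KPAW, with log2 fold changes of 0.94 (SE 0.21, adjusted p = 0.0194) and 1.15 (SE 0.21, adjusted p = 0.0111). Cdkn2b, an inhibitor of CDK4, rose in KPAW at 1.27 (SE 0.33, adjusted p = 0.0378) and had 0.89 (SE 0.33, adjusted p = 0.0963) in wild type. No gene of the wider list passed between KPAW and wild type at either age or in the interaction.

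**Figure D5:**
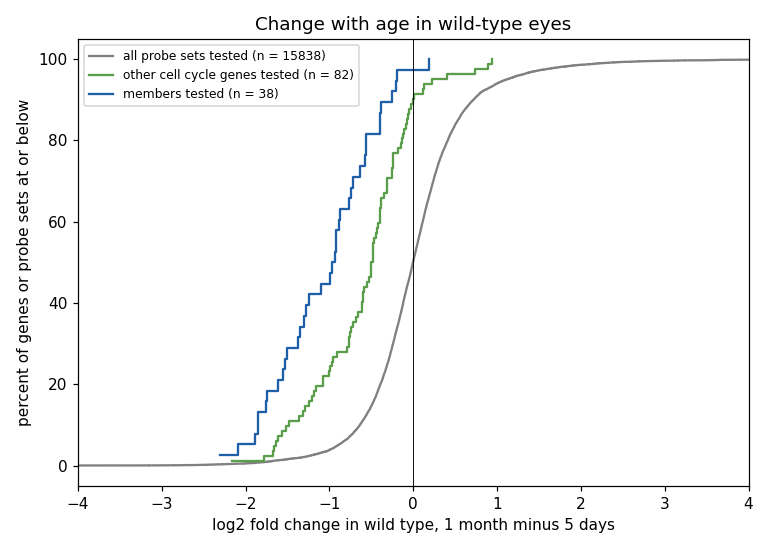
Cumulative percent (y axis) of the 38 tested members, the 82 tested other cell cycle genes and all 15838 probe sets tested at or below a log2 fold change with age in wild type (x axis). The members' median is -0.95, the curve of the other genes lies between, and the curve of all probe sets is centred on 0.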

How the data were processed

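The authors deposited 1 value per probe set and array, a signal. Whether it is on a linear or a log scale is not stated, and it was treated as linear here. The software and background correction behind these signals are not given in the sources used here. In each array the control probe sets had a median of 1, and 10.0% to 14.9% of the others were listed at the lowest value, 0.01, which has no order. Trizol extraction was followed by RNeasy clean-up, per the labels' protocols. Gene symbols come from GEO's platform annotation, which can be old. Of 22626 probe sets other than the 64 controls, 20380 had 1 symbol, 691 several and 1555 none.

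Each array was scaled to the median array by its mean after trimming 2% at each end (0.142 to 0.253 before scaling), then log2(signal + 0.0211) was taken, the pseudocount being the 20th percentile of positive values. Probe sets with a mean scaled signal above the 30th percentile, 0.0406, were tested: 15838 probe sets and 38 of the 42 members. The mean was taken over all 8 arrays, so a member low at 1 month, such as Cenpa or Kif11, could be tested through its 5-day signal. A single limma 3.58.1 fit (R 4.3.3) used all 8 arrays to estimate the 4 group means, with a variance trend and 4 degrees of freedom left. The number of arrays limits the precision. An exact permutation test of 2 arrays against 2 cannot give a two-sided p under 0.333 and was not used. P-values were two-sided and Benjamini-Hochberg adjusted over all probe sets tested, and calls were made under 0.05. On simulated data for age in wild type over 15838 probe sets, 54% of 50 changes of 1 on the log2 scale, 62% of 50 changes of -1 and 96% of 50 changes of 2 were recovered, and 13 unchanged probe sets were called. Few probe sets were changed there, with independent normal noise, while 18.1% of probe sets were called in the data. These rates therefore need not hold for the data.

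Members and gene lists were chosen with earlier results of these data known. Values in every array are given for the 2 members of each role with the largest statistic for age in wild type, any member there of opposite direction, the D-type cyclins, the inhibitors, Mki67, Pcna, Cdk1, Birc5, and the 5 and 3 members with the largest statistics between KPAW and wild type at 1 month and 5 days. Top2a, Mcm2, Bub1, Rpa1, Ccng1 and other genes with values outside this rule were chosen after their values were seen. Other pathway genes are named by the 2 largest called changes of a list. Alternatives changed the scaling, pseudocount, filter, variance model, probe set choice, array weights, replicate block and arrays used. Of the members' chosen probe sets, 3 carry the _x_at and 5 the _s_at ending. Protein sequences were not used here. Summaries used pandas 2.3.3 under Python 3.11.15, and figures matplotlib 3.10.9.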

Additional observations from a re-analysis of the deposited data

Results flagged for a closer look

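Top2a, the topoisomerase that untangles sister chromatids, lay on opposite sides of wild type at the 2 ages. At 5 days it read 0.384 and 0.390 in KPAW against 0.411 and 0.427 in wild type, and at 1 month 0.214 and 0.123 in KPAW against 0.120 and 0.100 in wild type. Both KPAW arrays were thus below both wild-type arrays at 5 days and above them at 1 month. The interaction test of that difference gave 0.60 on the log2 scale (SE 0.31, adjusted p = 0.809 in limma) and did not pass. On the values as deposited, unscaled, the 5-day difference turned to 0.08. Among all probe sets tested, 16.6% had the 5-day order and 16.9% the 1-month order, and the share with both was not counted. At 1 month KPAW II lay close to the higher wild-type array, and without KPAW I the log2 difference there was 0.14.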

How the results depend on the processing

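For age in wild type (25 members called) the count ran from 15 to 27 when single arrays were left out and was 15 on the values as deposited, where the median of all probe sets shifted to 0.44 and that of the members to -0.55, with 32 of 38 below 0. For age in KPAW (20 called) it ran from 6 to 26 when single arrays were left out and was 6 in a fit on the KPAW groups alone. For KPAW against wild type at 1 month it ran from 0 to 4, and at 5 days and in the interaction it was 0 under every setting run. The other settings kept the counts within 1.5 times. The shared numerals were not taken as pairs, because correlations of deviations ran from -0.0174 to 0.309 and 3 of 6 were over 0.1. With a replicate block 26 members were called in wild type, 22 in KPAW and 0 in the other contrasts. As deposited, 5 of 38 members, none of them called, turned sign with age in wild type (Cdkn1b to 0.22, Ccnd2 to 0.10, Ccnd3 to 0.29, Mcm4 to 0.06 and Hmmr to 0.21) and 0 in KPAW. For KPAW against wild type 15 turned at 5 days, 13 at 1 month and 21 in the interaction, with no calls there. With age in wild type Cdkn1a ran from -0.036 to 0.42 when single arrays were left out, lowest without array I of 1-month wild type. With age in KPAW, leaving out single arrays, Cdkn1a ran from -0.0061 to 0.69, Ccnd2 from -0.036 to 0.34 and Ccnd3 from -0.038 to 0.14, each lowest without array I of 1 month, and Ccnd2 was also below 0, at -0.03, without array II of 5-day KPAW. The causes were not tested. Low signals limit Cdc6, Tyms, Bub1 and Kif20a, which lie near the lowest listed value.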
